A study of Mus musculus with 21 samples.

Results

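The nuclear receptor genes Esrrb, Nr5a2, Nr0b1, Nr6a1 and Rarg, all expressed in mouse pluripotent cells, were followed through 4 stages of pluripotency. They were taken by gene name from a table of read counts, in which all 5 names matched 1 row each among 39396 genes. All 5 passed the filter on low counts, which left 16575 genes for testing. The 21 RNA-seq libraries formed 7 groups of 3. Both cell lines, D3 and A2, are mouse embryonic stem cells (mESCs) derived from the inner cell mass. In each line the ground state was kept in serum medium with 1000 U/mL leukaemia inhibitory factor (LIF) and 2i, a pair of kinase inhibitors. Naive mESCs had been without 2i for 4 days. Early primitive ectoderm-like (EPL) cells had spent 4 days in serum medium with L-proline at 400 uM and less LIF, 330 U/mL. Naive and EPL cells were both 4 days from the ground state, so they are parallel groups, not successive ones. A step, rise or fall between them is a difference between culture conditions at the same time. Epiblast stem cells (EpiSCs) were of A2 origin alone: A2 cells were implanted in a pseudopregnant mouse, recovered after implantation and grown with activin A and bFGF in a serum replacement medium. EpiSCs therefore differ from the other stages in medium and derivation as well as in stage, and these cannot be told apart. Each line stands for its difference alone, with no second line of the same kind. The comparisons ask how each receptor gene changes at each step and whether D3 and A2 change alike.

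Nuclear receptors are transcription factors, many of which bind a lipid or hormone and then exchange corepressors for coactivators at their target genes. Esrrb is an orphan receptor that helps keep mESCs in self-renewal, acting next to Nanog and downstream of GSK3 inhibition through relief of Tcf7l1 repression. Nr5a2 (Lrh1) binds similar DNA as a monomer and activates Pou5f1 in mESCs and epiblast. Nr0b1 (Dax1) has no DNA-binding zinc fingers and acts mainly as a corepressor of other receptors, including Nr5a2. Nr6a1 (GCNF) is an orphan repressor that silences Pou5f1 during retinoid-induced differentiation and after gastrulation. Rarg is a receptor for all-trans retinoic acid and works as a dimer with an RXR partner.

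The genes lie on 5 chromosomes of the mouse build GRCm38, with GENCODE coordinates. Esrrb (ENSMUSG00000021255) spans 86361117 to 86521628 on the plus strand of chromosome 12. Nr5a2 (ENSMUSG00000026398) spans 136842571 to 136960448 on the minus strand of chromosome 1. Nr0b1 (ENSMUSG00000025056) is the shortest gene of the set, from 86191764 to 86195947 on the plus strand of chromosome X. Nr6a1 (ENSMUSG00000063972) runs from 38723370 to 38927688 on the minus strand of chromosome 2. Rarg (ENSMUSG00000001288) runs from 102234938 to 102257517 on the minus strand of chromosome 15. Merged exons covered 6047 bases for Esrrb, 5899 for Nr5a2, 1808 for Nr0b1, 10824 for Nr6a1 and 4261 for Rarg. Of these genes, Nr6a1 alone is overlapped by other annotated genes, among them the antisense Nr6a1os on the opposite strand. None of those overlaps its exons, and Nr6a1os held 14 counts over the 21 libraries.

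Because several of these receptors bind the letters AGGTCA, their own promoters were searched for them. RefSeq promoter entries (GRCm38.p6, 250 bases before to 50 after a start site) were found for all 5 genes, 9 entries in all. On either strand, AGGTCA was present in 4 of those 9 promoters, against 16.3% of 32851 promoters of the same length in the table. The stretches below surround each match, lie upstream of their start site and touch no annotated exon. Each is given 5′ to 3′ along the gene's own strand, with AGGTCA or its reverse complement TGACCT in capitals.
Nr5a2, minus strand, chr1:136960483-136960543: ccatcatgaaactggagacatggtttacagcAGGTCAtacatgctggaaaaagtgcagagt
Nr0b1, plus strand, chrX:86191620-86191680: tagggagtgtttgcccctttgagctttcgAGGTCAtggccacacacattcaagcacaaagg
Nr6a1, second start site, minus strand, chr2:38784540-38784625: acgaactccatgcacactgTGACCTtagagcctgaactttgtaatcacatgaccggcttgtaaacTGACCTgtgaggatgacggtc
Rarg, minus strand, chr15:102257712-102257772: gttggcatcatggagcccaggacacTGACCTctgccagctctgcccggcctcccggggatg
Counted from the start site, the match in Nr5a2 begins at -64 and that in Nr0b1 at -126, while Nr6a1 has matches at -91 and -45 and Rarg at -225. The 2 windows of Esrrb held none. The extended letters TCAAGGTCA, the form preferred by Esrrb and Nr5a2, were present in 0.423% of all promoters and in none of the 9. The direct repeat without spacing, AGGTCAAGGTCA, which Nr6a1 binds, was present in 2 promoters of the table (0.00609%), and the repeat with 5 bases between, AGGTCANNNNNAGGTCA, which retinoic acid receptors bind, in 3 (0.00913%). Neither repeat was present in the 9 promoters. The AGGTCA matches overlap all longer motifs by construction, and a match describes letters, not a bound site.

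Total counts per library were between 15320599 and 23490527, and 0 pairs of libraries had identical counts. Nothing in the labels says that the 3 libraries of a group came from separate cultures. Each p-value is therefore set against the variation among these libraries, which may be technical. Levels are in CPM, counts scaled to the TMM-adjusted library size, and comparisons between genes use CPM per kilobase (kb) of merged exon. A gene was called changed at an adjusted p below 0.05 from edgeR's quasi-likelihood test over all 16575 genes. The stage labels were set against marker genes. Otx2 and Pou3f1, transcription factors of the postimplantation epiblast, were at 59.2 ± 2.5 and 64.6 ± 5.3 CPM in A2 EPL cells and at 1.48 ± 0.34 and 0.567 ± 0.21 CPM in A2 ground cells (SD, n = 3). In D3 they were at 108 ± 8.3 and 130 ± 5.3 CPM in EPL and at 7.0 ± 0.78 and 1.08 ± 0.49 CPM in ground cells. The mesendoderm factor T went the other way, at 0.229 ± 0.198 CPM in A2 EPL and 1.7 ± 0.54 CPM in A2 ground cells. In EPL against ground, 10 of 13 primed markers tested were higher and 3 lower in A2, beside 27.2% and 27.6% of all genes. In D3 9 were higher and 3 lower, beside 29.4% and 28.4%. EpiSC libraries held the primed marker Fgf5 at 12.7 ± 5.1 CPM and the mesendoderm factor T at 4.41 ± 0.38 CPM, both higher than in A2 EPL libraries. Otx2, Pou3f1 and Dnmt3b, a de novo DNA methyltransferase on the same list, were lower in EpiSC than in A2 EPL libraries, with Otx2 at 13.2 ± 1.3 and Pou3f1 at 19.7 ± 3.7 CPM in EpiSC. Dnmt3b was at 90.4 ± 5.9 CPM in EpiSC, 792.5 ± 70 CPM in A2 EPL and 165 ± 8.5 CPM in A2 ground libraries. Of the 13 primed markers tested, 7 were higher and 3 lower in EpiSC than in EPL, beside 39.1% and 31.3% of all genes. Zfp42, a marker of naive cells, was at 317.5 ± 56 CPM in EpiSC, the lowest of the 7 group means. It was at 875 ± 26 CPM in A2 EPL and 1143 ± 26 CPM in A2 ground libraries. EpiSC libraries carried fibroblast collagen transcripts as well, as described with the EpiSC results.

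Esrrb was highest in the ground state and stepped down to naive and to EPL cells in both lines, and in CPM again to EpiSCs in A2. Nr5a2 fell at the EPL stage, more in D3 than in A2, and was lowest in EpiSCs. Nr0b1 peaked in naive cells and was lowest in EpiSCs. Nr6a1 and Rarg were higher in naive and EPL cells than in the ground state of both lines, and both were lower in EpiSC than in EPL libraries in CPM. Between the highest and the lowest group mean the ratio was 10.2 for Nr0b1, 5.5 for Nr5a2, 4.34 for Esrrb, 3.49 for Nr6a1 and 3.42 for Rarg.

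**Figure D1:**
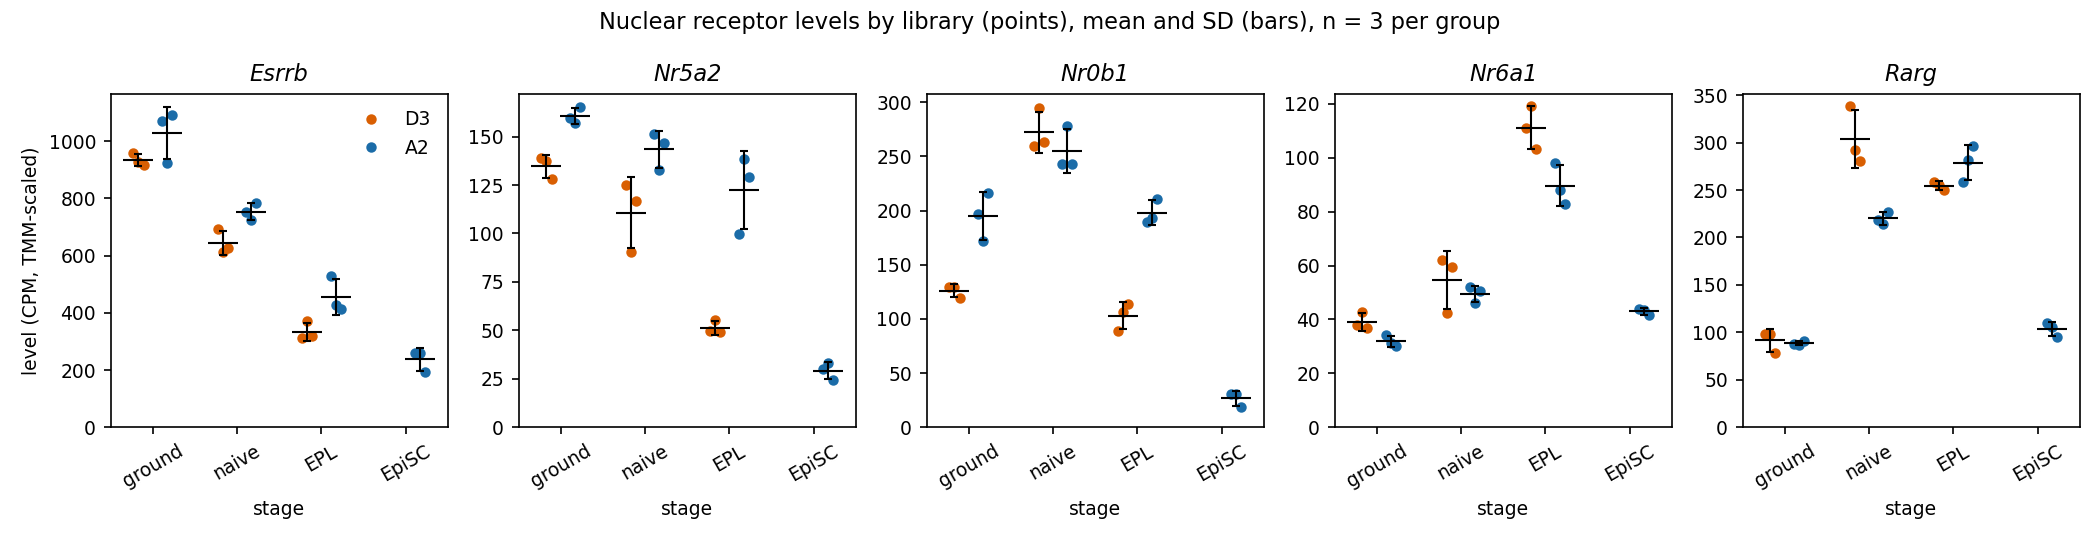
Levels of the 5 receptor genes (CPM, TMM-scaled, vertical axis from 0) by stage in D3 (orange, left of each pair) and A2 (blue, right), with 1 point per library and black bars for the mean and SD of 3 libraries. Esrrb steps down from ground to EpiSC, Nr0b1 peaks in naive cells, Nr6a1 peaks in EPL cells, and the D3 EPL points of Nr5a2 and Nr0b1 lie below those of A2.

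Esrrb in D3 was at 960, 926 and 917 CPM in the ground libraries, 693, 613 and 627 CPM in the naive libraries and 312, 371 and 319 CPM in the EPL libraries. In A2 it was at 1072, 925 and 1091 CPM in ground, 754, 724 and 784 CPM in naive, 528, 426 and 413 CPM in EPL and 259, 261 and 192 CPM in EpiSC libraries. Within each line every naive library was below every ground library, and every EPL library was below every naive library. Every EpiSC library was below every A2 EPL library. The naive level was 0.69 times the ground level in D3 (log2 fold change -0.54 ± 0.11 SE, edgeR adjusted p = 0.000212) and 0.733 times in A2 (-0.45 ± 0.11, edgeR adjusted p = 0.0013). EPL cells differed from ground by -1.48 ± 0.11 log2 units in D3 (fold 0.357, edgeR adjusted p = 7.58e-11) and differed by -1.18 ± 0.11 in A2 (fold 0.443, edgeR adjusted p = 4.38e-09). Esrrb was lower in EPL than in naive cells by 0.95 ± 0.11 in D3 and by 0.73 ± 0.11 in A2, both called. In the order of the 7 group means, A2 ground came first and D3 ground second with overlapping libraries, and all later neighbours were separated, down to EpiSC.

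D3 and A2 were closest in Esrrb in the ground state, where the difference was -0.14 ± 0.11 and not called (edgeR adjusted p = 0.415, 95% interval -0.35 to 0.07). In naive cells it was -0.23 ± 0.11 (edgeR adjusted p = 0.118). In EPL cells Esrrb was lower in D3, by -0.45 ± 0.11 on the log2 scale (edgeR adjusted p = 0.00294). The tests of whether the stage differences of Esrrb themselves differed between lines made no call. The D3 minus A2 differences were -0.31 ± 0.15 for EPL against ground (edgeR adjusted p = 0.208) and -0.22 ± 0.15 for EPL against naive (edgeR adjusted p = 0.377). The first had a 95% interval of -0.61 to -0.01 by the normal quantile, which is too narrow here: its unadjusted edgeR p was 0.0538.

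Nr5a2 had 139, 137 and 128 CPM in D3 ground libraries, 125, 90.2 and 117 CPM in D3 naive libraries and 49.5, 55.1 and 49.1 CPM in D3 EPL libraries. The A2 libraries had 160, 157 and 165 CPM in ground, 151, 133 and 147 CPM in naive, 99.7, 139 and 129 CPM in EPL and 29.9, 33.4 and 24.3 CPM in EpiSC. The D3 EPL libraries were all below every D3 ground and naive library, whereas the A2 EPL libraries overlapped those of A2 naive. EPL cells of D3 were at 0.38 times their ground level (log2 -1.40 ± 0.12, edgeR adjusted p = 1.31e-09) and those of A2 at 0.762 times (-0.39 ± 0.12, edgeR adjusted p = 0.00719). The fall was larger in D3, with a D3 minus A2 difference of -1.0 ± 0.17 (edgeR adjusted p = 0.000297). Without A2 EPL replicate 1, the lowest of its group, the A2 difference was -0.26 and was not called (edgeR adjusted p = 0.063).

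In EPL against naive cells, Nr5a2 was lower by 1.11 ± 0.12 in D3 (edgeR adjusted p = 1.79e-07), while the A2 difference of -0.23 ± 0.12 was not called (edgeR adjusted p = 0.145). The D3 minus A2 difference of this step was -0.88 ± 0.17 (edgeR adjusted p = 0.00129). Nr5a2 in EPL cells was 0.418 times as high in D3 as in A2 (log2 -1.26 ± 0.12, edgeR adjusted p = 6.58e-08). Naive cells of D3 were also called lower than those of A2 (-0.37 ± 0.12, edgeR adjusted p = 0.0199), but not without A2 naive replicate 1, A2 naive replicate 3 or D3 naive replicate 2, where the edgeR adjusted p reached 0.129. The naive difference from ground in D3, -0.28 ± 0.12 (edgeR adjusted p = 0.0483), stood just inside the threshold and was lost without each library in turn other than D3 naive replicate 1 (5 of 6), with values of -0.36 to -0.15 over the 6 leave-outs. In A2 the same difference was -0.16 ± 0.12 (edgeR adjusted p = 0.259). Between A2 naive, D3 ground, A2 EPL and D3 naive, neighbours in the order of means overlapped.

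Nr0b1 reached 130, 129 and 119 CPM in D3 ground libraries, 259, 294 and 263 CPM in D3 naive libraries and 88.8, 107 and 113 CPM in D3 EPL libraries. In A2 the values were 197, 172 and 216 CPM in ground, 243, 278 and 243 CPM in naive, 189, 194 and 211 CPM in EPL and 30.6, 30.9 and 18.3 CPM in EpiSC libraries. Naive libraries were the highest in both lines and the naive groups of D3 and A2 overlapped. The rise from ground to naive was 2.16-fold in D3 (log2 1.11 ± 0.13, edgeR adjusted p = 2.42e-07) and 1.31-fold in A2 (0.39 ± 0.13, edgeR adjusted p = 0.0161). The A2 rise was not called without A2 ground replicate 2 or A2 naive replicate 2, where it was at its lowest 0.30. The D3 ground level stood below that of A2, by -0.63 ± 0.13 on the log2 scale (edgeR adjusted p = 0.00117), and the naive levels were not called different (0.10 ± 0.13, 95% interval -0.16 to 0.35, edgeR adjusted p = 0.62). The rises differed by 0.72 ± 0.18 (edgeR adjusted p = 0.031), a call that was lost without 8 of the 12 libraries in turn, with differences of 0.65 to 0.82 over all 12. It was kept without A2 ground replicate 2, A2 naive replicate 2, D3 naive replicate 1 or D3 naive replicate 3.

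The EPL stage separated the lines again. Nr0b1 in D3 EPL cells was 0.379 times the naive level (log2 -1.40 ± 0.13, edgeR adjusted p = 2.24e-08), and in A2 EPL cells 0.776 times (-0.37 ± 0.13, edgeR adjusted p = 0.0333). The A2 call was lost without A2 naive replicate 2 or 3 or A2 EPL replicate 1 or 2. The D3 minus A2 difference of this step was -1.04 ± 0.18 (edgeR adjusted p = 0.000693), and it was called without each of the 12 libraries in turn. EPL levels of D3 were 0.521 times those of A2 (-0.94 ± 0.13, edgeR adjusted p = 1.06e-05). Against ground, the EPL difference was -0.29 ± 0.13 in D3 (edgeR adjusted p = 0.0623) and 0.02 ± 0.13 in A2 (95% interval -0.23 to 0.27, edgeR adjusted p = 0.91), neither of them called.

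In the EPL comparison of lines, the primed epiblast markers also differed. Their summed level was 2000 to 2107 CPM in D3 EPL libraries and 1108 to 1366 CPM in A2 EPL libraries, with 10 of 13 tested genes higher in D3 and 1 lower. Most of the sum was Dnmt3b, at 1293 ± 70 CPM in D3 and 792.5 ± 70 CPM in A2. In this comparison 15.6% of all genes were called higher and 13.8% lower in D3, the background for each marker list given here. Fgf5, a growth factor of the postimplantation epiblast, was at 24.4 ± 1.2 CPM in D3 and 4.51 ± 0.85 CPM in A2. Primitive endoderm markers summed to 239 to 337.5 CPM in D3 EPL libraries and 182 to 299.6 CPM in A2 EPL libraries, most of it from Lama1, Lamb1 and Col4a1. Of these markers, 5 of 12 tested genes were higher in D3 and 0 lower. Fibroblast markers summed to 737.7 to 1003 CPM in D3 EPL and 1302 to 1467 CPM in A2 EPL libraries, most of it from Fn1 and Vim, which were lower in D3. Counted by gene, 3 of 17 were higher and 2 lower in D3 (median log2 0.76), near the shares of all genes. That median rests partly on genes of very few counts. It was 0.26 with 2 genes set to 3 counts in a group and 4 genes of 3 counts or fewer in both groups left out. Col1a1 was at 1.54 ± 0.34 CPM in D3 and 0.620 ± 0.23 CPM in A2. Trophoblast markers summed to 24.7 to 27.7 CPM in D3 EPL and 53.4 to 77.3 CPM in A2 EPL libraries, with 2 of 7 higher and 2 lower. Most of that sum was Tfap2c, at 17.7 ± 0.89 CPM in D3 and 52.8 ± 11 CPM in A2. The part of any of these lists in the lower Esrrb, Nr5a2 and Nr0b1 levels of D3 EPL cells was not tested.

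Nr6a1 was at 37.8, 42.9 and 36.8 CPM in D3 ground libraries, 62.1, 42.3 and 59.4 CPM in D3 naive libraries and 111, 119 and 103 CPM in D3 EPL libraries. A2 libraries held 34.3, 31.2 and 30.1 CPM in ground, 52.0, 46.2 and 50.6 CPM in naive, 98.0, 88.1 and 83.0 CPM in EPL and 43.9, 43.7 and 41.6 CPM in EpiSC. EPL libraries of each line stood above all of its other libraries, and 1 D3 naive library fell within the range of D3 ground. The rise from ground to EPL was nearly equal in the lines, at 2.84-fold in D3 (log2 1.5 ± 0.11, edgeR adjusted p = 5.47e-11) and 2.81-fold in A2 (1.49 ± 0.11, edgeR adjusted p = 1.09e-10). The D3 minus A2 difference of 0.01 ± 0.15 had a 95% interval of -0.29 to 0.31. Naive cells stood above ground by 0.48 ± 0.11 in D3 (edgeR adjusted p = 0.000795) and by 0.64 ± 0.11 in A2 (edgeR adjusted p = 4.67e-05). EPL cells stood above naive by 1.03 ± 0.11 in D3 and 0.86 ± 0.11 in A2, both called. In EPL cells D3 was higher than A2 by 0.31 ± 0.10 (edgeR adjusted p = 0.0295), a call lost without any one of 4 of the 6 libraries (A2 EPL replicates 2 and 3, D3 EPL replicates 1 and 2).

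Rarg was measured at 98.4, 98.1 and 77.9 CPM in D3 ground libraries, 339, 292.5 and 281 CPM in D3 naive libraries and 259, 255 and 249.7 CPM in D3 EPL libraries. In A2, ground libraries gave 88.2, 87.1 and 91.4 CPM, naive libraries 219, 214 and 227 CPM, EPL libraries 259, 282 and 296 CPM and EpiSC libraries 109.5, 106 and 95.3 CPM. No ground library of either line came near a naive or EPL library. Naive levels were 3.32 times ground in D3 (log2 1.73 ± 0.09, edgeR adjusted p = 1.83e-13) and 2.47 times in A2 (1.31 ± 0.09, edgeR adjusted p = 2.38e-11). EPL levels were 2.78 times ground in D3 (1.48 ± 0.09) and 3.14 times in A2 (1.65 ± 0.09), again called in both.

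EPL cells differed from naive cells in Rarg in opposite directions in the lines. Rarg was lower in EPL by 0.26 ± 0.08 in D3 (edgeR adjusted p = 0.0164) and higher by 0.34 ± 0.08 in A2 (edgeR adjusted p = 0.00319). The D3 minus A2 difference was -0.60 ± 0.12 (edgeR adjusted p = 0.00182). In D3 the difference was -0.19 and was not called without D3 naive replicate 1, the highest library of its group (edgeR adjusted p = 0.0914). D3 exceeded A2 in naive cells (0.47 ± 0.08, edgeR adjusted p = 0.000198), while in EPL cells the difference was -0.13 ± 0.08 with overlapping libraries (edgeR adjusted p = 0.264). D3 naive, A2 EPL and D3 EPL, the top groups in the order of means, overlapped between neighbours.

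**Figure D2:**
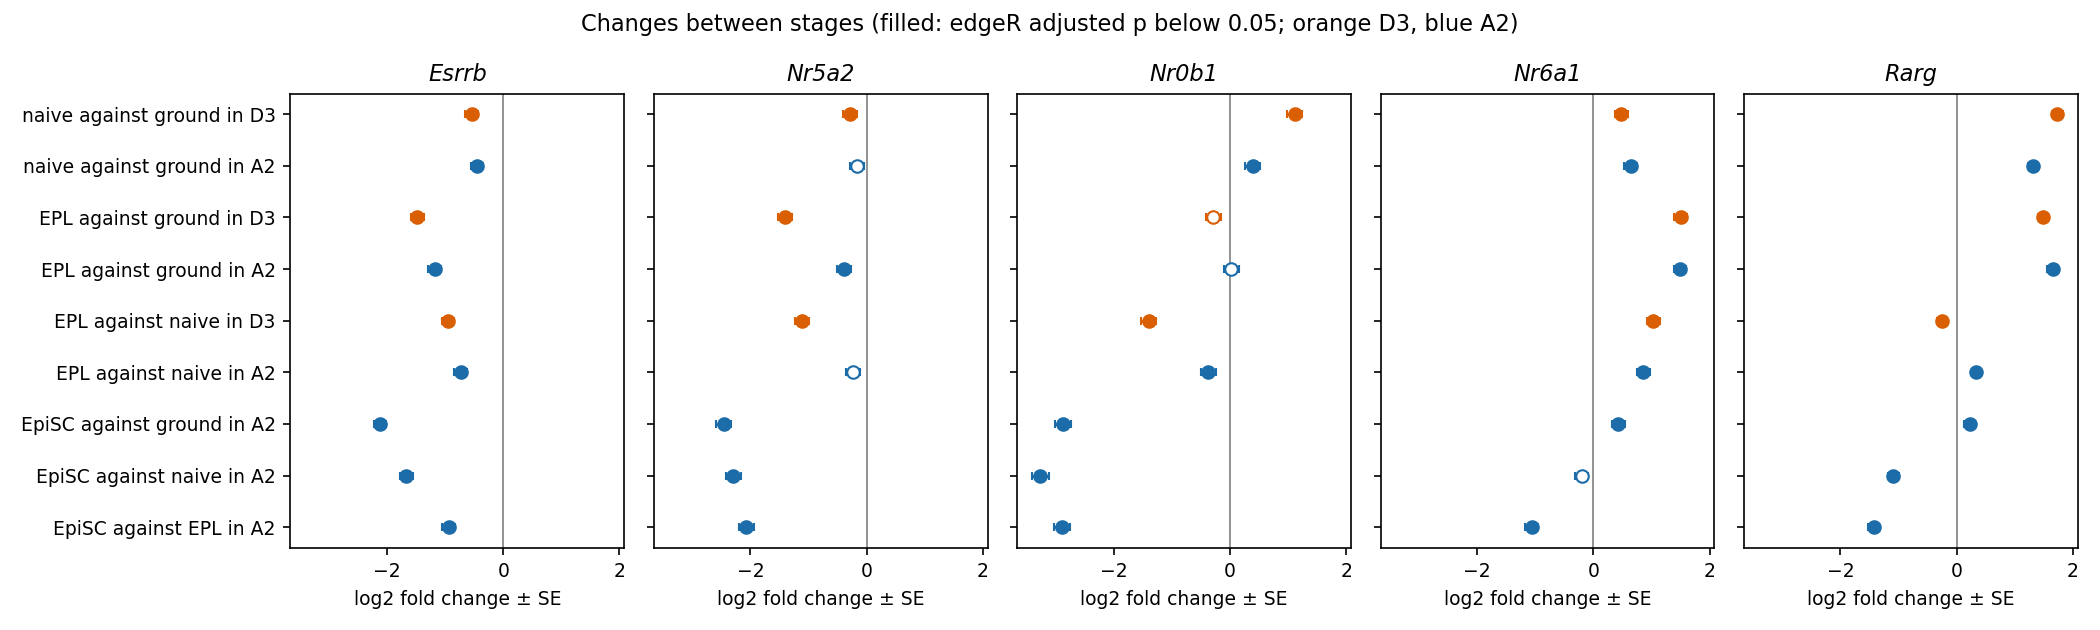
Log2 fold changes (horizontal axis) with their standard errors for each receptor gene in 9 comparisons of stages, in D3 (orange) and A2 (blue), with filled points for edgeR adjusted p below 0.05. Esrrb lies left of 0 in all 9 comparisons, and Rarg in EPL against naive lies left of 0 in D3 (-0.26) and right of 0 in A2 (0.34).

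For naive against ground, 3 receptors were higher and 2 lower in D3, where 26.3% of all genes were called higher and 27.3% lower. In A2 3 were higher and 1 lower, against 25.1% of genes higher and 25.9% lower. For EPL against ground, 2 were higher and 2 lower in each line. The background of that comparison was 29.4% higher and 28.4% lower in D3, and 27.2% higher and 27.6% lower in A2. For EPL against naive, 1 was higher and 4 lower in D3 (background 24.4% higher, 20.4% lower), and 2 were higher and 2 lower in A2 (16.8% higher, 16.1% lower).

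Between lines, 1 receptor was lower and 0 higher in D3 than in A2 in the ground state, where 10.9% of all genes were called lower and 9.13% higher. In naive cells 1 was lower and 1 higher, beside 15.4% and 14.5% of genes. In EPL cells 3 were lower and 1 higher, beside 13.8% and 15.6% of genes. The difference between lines in the stage step was called for 1 receptor in naive against ground (3.06% of genes), for 1 in EPL against ground (13.3%) and for 3 in EPL against naive (12.7%).

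EpiSC libraries had less Esrrb, Nr5a2 and Nr0b1 in CPM than every other A2 stage. Of the 5 genes, 5 were lower and 0 higher than in EPL cells, where 31.3% of all genes were called lower and 39.1% higher. Against naive 4 were lower and 0 higher (background 31.2% lower, 39.1% higher), and against ground 3 were lower and 2 higher (34.1% lower, 39.1% higher). Nr0b1 changed most, at 0.135 times its EPL level (log2 -2.89 ± 0.14, edgeR adjusted p = 8.12e-14), 0.105 times its naive level and 0.137 times its ground level. Nr5a2 was at 0.239 times its EPL level (-2.07 ± 0.13, edgeR adjusted p = 2.41e-12), and Esrrb at 0.521 times (-0.94 ± 0.11, edgeR adjusted p = 8.69e-08). Against ground, Esrrb stood at 0.231 times and Nr5a2 at 0.182 times. Nr6a1 was at 0.48 times its EPL level (-1.06 ± 0.11, edgeR adjusted p = 1.16e-08) and Rarg at 0.371 times (-1.43 ± 0.09, edgeR adjusted p = 2.12e-12). Both remained above ground, Nr6a1 by 0.43 ± 0.11 (edgeR adjusted p = 0.00128) and Rarg by 0.22 ± 0.09 (edgeR adjusted p = 0.0251). The Rarg call was lost without A2 ground replicate 2, A2 EpiSC replicate 1 or A2 EpiSC replicate 2.

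These EpiSC values came with transcripts of other cell types. All 17 fibroblast markers were higher in EpiSC than in EPL libraries, and their summed level was 5075 to 7775 CPM in EpiSC against 1302 to 1467 CPM in EPL libraries. Col1a1, a main collagen of fibroblasts, was at 1232 ± 163 CPM in EpiSC and 0.620 ± 0.23 CPM in EPL libraries. Primitive endoderm markers summed to 1225 to 1679 CPM in EpiSC against 182 to 299.6 CPM in EPL libraries, with all 12 tested genes higher. Most of the EpiSC sum came from Col4a1 (621 ± 88 CPM), Lamb1 (412 ± 84 CPM) and Lama1 (227.5 ± 42 CPM). The defining factors Gata4, Gata6 and Sox17 were at 29.2 ± 3.8, 25.5 ± 5.5 and 4.97 ± 0.28 CPM in EpiSC. In EPL libraries they were at 2.71 ± 0.84, 1.70 ± 1.1 and 0.653 ± 0.30 CPM. Among trophoblast markers 3 of 7 tested were higher and 2 lower, and the defining gene Elf5 had 5 counts over the EpiSC libraries and 1 over the EPL libraries. The shares of all genes in this comparison were 39.1% higher and 31.3% lower. Pou5f1, the octamer factor of pluripotent cells, was at 489 ± 80 CPM in EpiSC and 1074 ± 39 CPM in EPL libraries, and Sox2 at 236 ± 30 and 470.0 ± 10 CPM in the same groups. In bulk libraries, fewer cells of a type and less RNA per cell cannot be told apart.

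Counts were therefore also set against Pou5f1 within each library, an alternative added after these markers were seen. Per 100 counts of Pou5f1, Esrrb was at 48.5 ± 1.7 in EpiSC and 42.3 ± 4.8 in EPL libraries. Nr6a1 was at 8.94 ± 1.3 in EpiSC and 8.35 ± 0.59 in EPL libraries, and Rarg at 21.4 ± 2.4 and 26.0 ± 2.3 in these groups. Nr5a2, by contrast, was at 5.98 ± 0.14 in EpiSC against 11.4 ± 2.3 in EPL libraries, and Nr0b1 at 5.38 ± 0.71 against 18.4 ± 1.3. In edgeR fits scaled to Pou5f1, Nr5a2 and Nr0b1 were still called lower in EpiSC than in EPL (log2 -0.94 with adjusted p = 3.03e-05, and -1.78 with adjusted p = 8.53e-12). Esrrb, Nr6a1 and Rarg were not called (0.20, 0.10 and -0.28, edgeR adjusted p = 0.133, 0.606 and 0.0649), though Rarg was called lower when scaled to Sox2 (-0.43, edgeR adjusted p = 0.000214). With this scaling the median of all genes stood 1.22 log2 units higher in EpiSC than in EPL, so Esrrb, Nr6a1 and Rarg lay below that median.

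Esrrb, Nr5a2 and Nr0b1 were called lower in EpiSC than in ground cells under TMM, Pou5f1 and Sox2 scaling (Esrrb -2.12, -0.89 and -1.25 in that order). The higher levels of Nr6a1 and Rarg in EpiSC than in ground cells were larger under Pou5f1 scaling, at 1.67 and 1.46 (edgeR adjusted p = 3.75e-08 and 7.69e-09), beside a median of all genes of 1.29. Against naive, the Nr6a1 difference of -0.20 ± 0.11 (edgeR adjusted p = 0.0971) became 1.14 and the Rarg fall of 1.09 ± 0.09 became 0.25, which was not called (edgeR adjusted p = 0.0944), beside a median of all genes of 0.08 under TMM and 1.42 under Pou5f1 scaling. The change of sign follows the shift of all genes, and neither gene was called under both scalings.

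**Figure D3:**
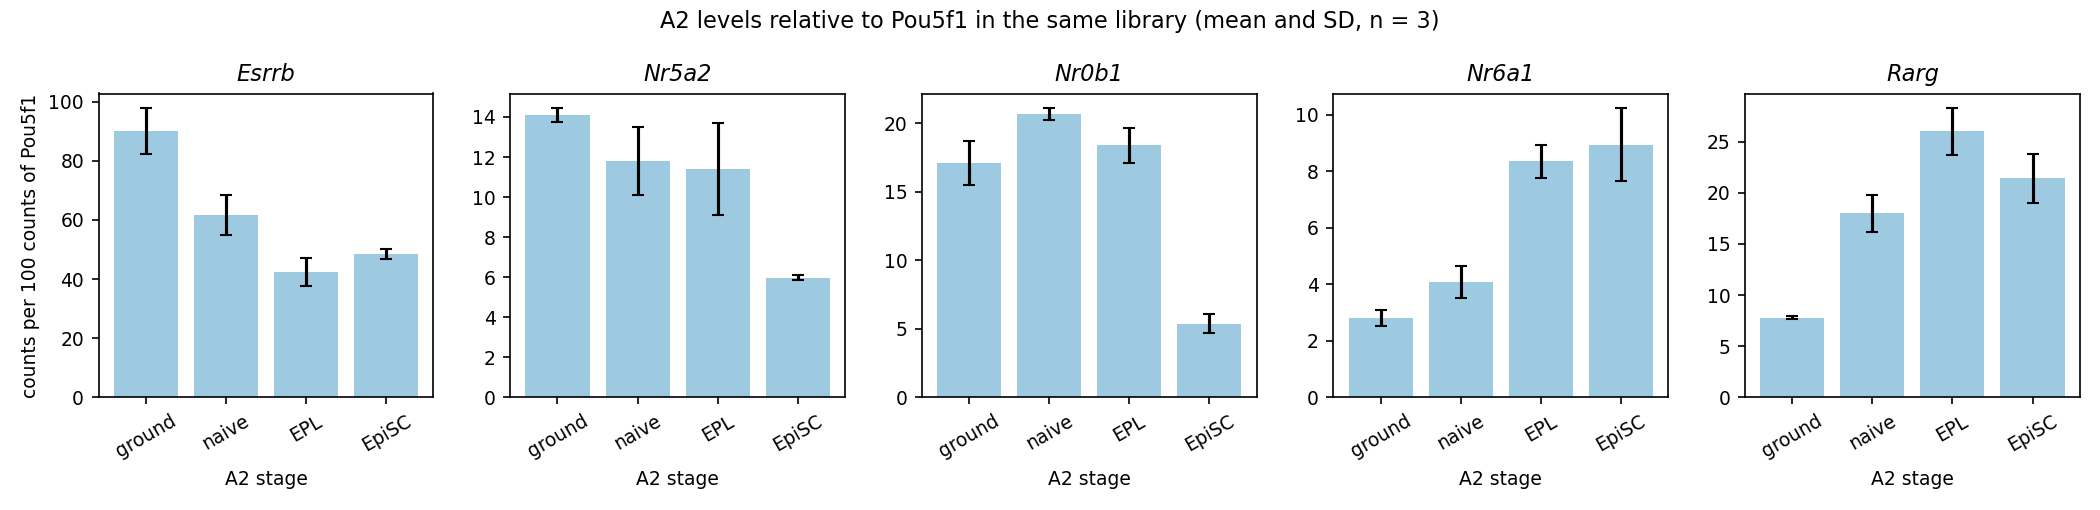
Counts of each receptor gene per 100 counts of Pou5f1 in the same library (vertical axis from 0) across the 4 A2 stages, with bars for the mean and lines for the SD of 3 libraries. Nr5a2 and Nr0b1 are lowest in EpiSC, at 5.98 and 5.38, while Esrrb (48.5) and Nr6a1 (8.94) lie near their EPL values.

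Set against the whole superfamily, the 5 genes made up most of the nuclear receptor transcript per kb until the EpiSC stage. The table held 49 nuclear receptor genes, and 35 of them, the 5 included, were tested. In the ground state the 5 genes held 70.8 ± 0.58% of the summed CPM per kb in D3 and 73.9 ± 1.5% in A2 (SD, n = 3). Naive shares were 73.0 ± 0.26% in D3 and 72.9 ± 0.25% in A2, EPL shares 61.0 ± 1.4% in D3 and 68.4 ± 0.62% in A2, and the EpiSC share was 41.8 ± 3.9%. Esrrb ranked first per kb in ground libraries of both lines and in EpiSC, Nr0b1 in naive libraries of both lines and in A2 EPL, and Rarg in D3 EPL. In D3 EPL the top 3 lay close together, with 59.8 ± 1.1 CPM per kb for Rarg, 56.9 ± 7.0 for Nr0b1 and 55.2 ± 5.3 for Esrrb. Nr6a1 ranked between 8 of 49 in D3 EPL and 16 of 49 in A2 ground and A2 EpiSC, and Nr5a2 between 3 of 49 in A2 ground and 13 of 49 in A2 EpiSC. The fraction of summed CPM per kb does not depend on the scaling factor of a library, but fibroblast and endoderm transcripts in EpiSC libraries enter it, and their part in the lower EpiSC share was not tested.

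**Figure D4:**
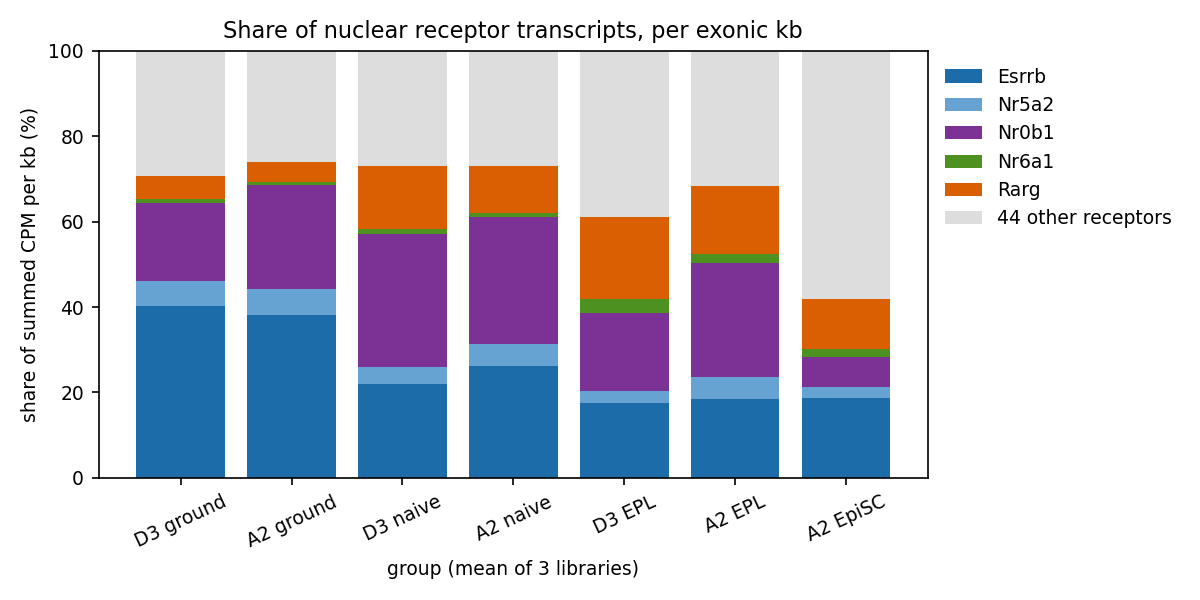
Share of the summed CPM per exonic kb of 49 nuclear receptor genes (vertical axis, %) taken by each of the 5 receptor genes and by the 44 others, as means of 3 libraries per group. The 5 genes hold between 61.0% and 73.9% in the ground, naive and EPL groups and 41.8% in A2 EpiSC.

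Among the 44 other receptors 30 were tested. For naive against ground 9 rose and 5 fell in D3, and 7 rose and 6 fell in A2, with median log2 changes of -0.03 in each line beside 0.0072 and 0 over all genes. The shares of all genes that rose and fell at this step, 26.3% and 27.3% in D3 and 25.1% and 25.9% in A2, were larger in sum. Rara, the alpha retinoic acid receptor, rose with Rarg, by 1.09 ± 0.07 in D3 (edgeR adjusted p = 8.68e-12) and 0.83 ± 0.07 in A2 (edgeR adjusted p = 8.57e-10). The orphan receptor Nr2f6 rose by 1.11 ± 0.10 in D3 and 0.96 ± 0.11 in A2, and Hnf4a, an endoderm receptor, by 1.30 ± 0.18 and 1.91 ± 0.20. Hnf4a is also on the primitive endoderm list, of which 8 of 12 tested genes rose in D3 and 10 of 12 in A2 at this step, with 0 lower in either line. Primitive endoderm markers summed to 230.6 to 305 CPM in D3 naive and 151 to 158 CPM in D3 ground libraries, and to 239 to 337 CPM in A2 naive and 192 to 211 CPM in A2 ground libraries. Most of each sum came from Lama1, Lamb1 and Col4a1. The part of these markers in the rises of receptor and retinoid genes was not tested. Rxrg, an RXR partner of retinoic acid receptors, had 146 counts in D3 naive libraries and 1 in D3 ground libraries, and 84 counts in A2 naive and 1 in A2 ground, and it was called higher in both lines (edgeR adjusted p = 2.71e-11 and 2.89e-09). For EPL against ground 12 rose and 8 fell in D3 (median 0.03, all genes 0), and 11 rose and 9 fell in A2 (median 0.008, all genes -0.0023). Of all genes, 29.4% rose and 28.4% fell there in D3, and 27.2% and 27.6% in A2. Rxra, the alpha RXR partner, fell there by 1.25 ± 0.10 in D3 (edgeR adjusted p = 6.52e-10) and by 1.48 ± 0.11 in A2 (edgeR adjusted p = 5.6e-11).

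Between EpiSC and EPL libraries, 18 of the 30 other receptors were higher and 9 lower (median 0.75, all genes 0.07), beside 39.1% and 31.3% of all genes. Nr2f1 and Nr2f2, orphan receptors of mesoderm and mesenchyme, had 308 and 710 counts in EpiSC libraries against 3 and 2 in EPL libraries. Both were also called lower in naive than in ground cells of each line. Rarb, whose transcription retinoic acid raises, was at 5.24 ± 1.6 CPM in EpiSC and 0.0967 ± 0.032 CPM in EPL libraries (log2 5.66 ± 0.51, edgeR adjusted p = 1.82e-09). The part of the fibroblast and primitive endoderm transcripts in these EpiSC differences was not tested.

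**Figure D5:**
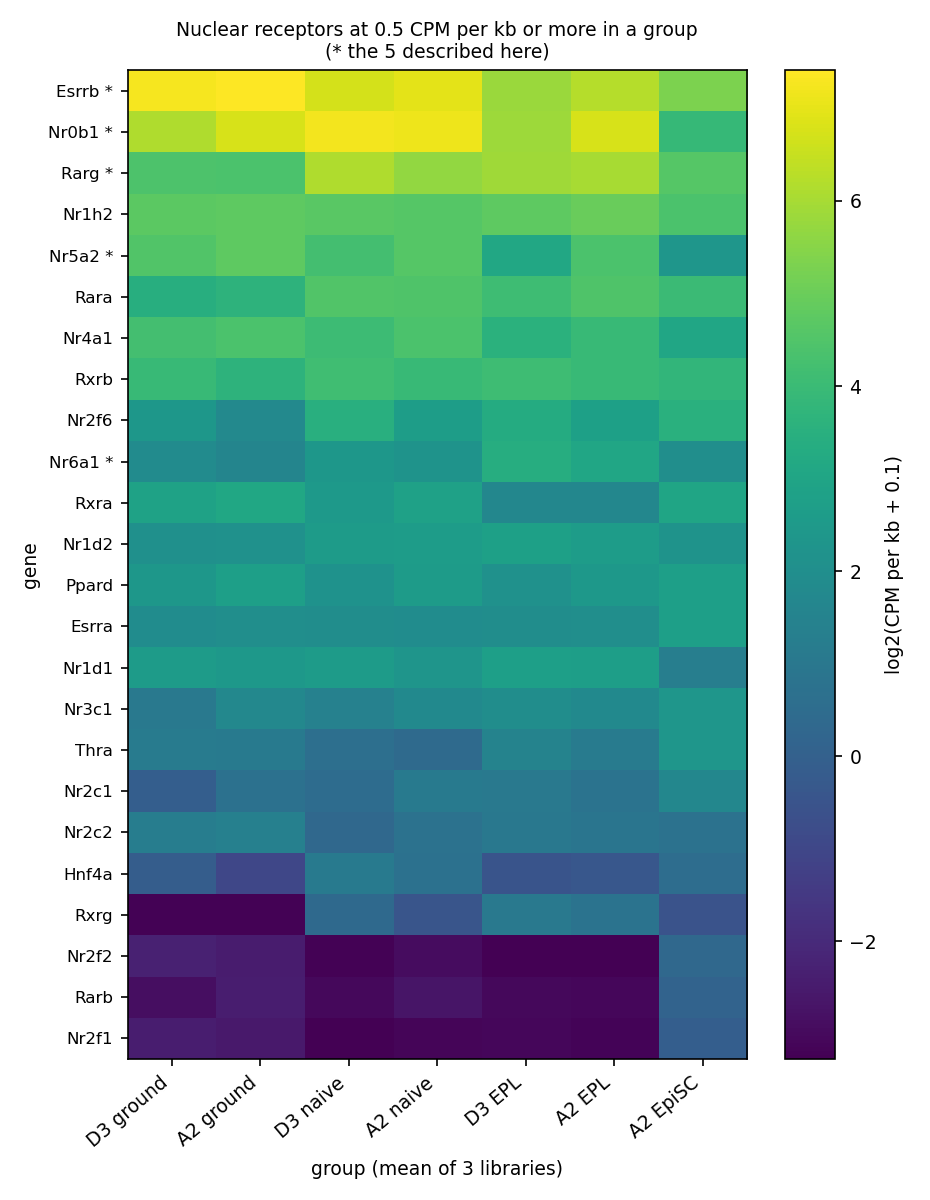
Heat map of log2(CPM per kb + 0.1), as group means of 3 libraries, for the 24 nuclear receptor genes that reached 0.5 CPM per kb in a group, ordered by their highest group mean, with the 5 described here starred. Esrrb, Nr0b1 and Rarg fill the top rows, and Nr2f1, Nr2f2 and Rarb reach 0.5 CPM per kb in A2 EpiSC and in no other group.

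The retinoid pathway list, 23 genes of retinoid binding, synthesis, breakdown and response apart from Rarg, had 22 tested members. For naive against ground 11 rose and 4 fell in D3 (median 0.44, all genes 0.0072), and 8 rose and 5 fell in A2 (median 0.78, all genes 0). These counts stand beside 26.3% of all genes higher and 27.3% lower in D3, and 25.1% and 25.9% in A2, and beside the rise of primitive endoderm markers at the same step. Crabp2 and Crabp1, which carry retinoic acid in the cell, rose by 2.40 ± 0.24 and 1.99 ± 0.19 in D3 and by 2.69 ± 0.25 and 2.10 ± 0.19 in A2, all called. Aldh1a3, which makes retinoic acid, fell by 2.46 ± 0.38 in D3 (edgeR adjusted p = 1.05e-05) and by 3.91 ± 0.33 in A2 (edgeR adjusted p = 1.75e-09). For EPL against ground 9 rose and 5 fell in D3 (29.4% and 28.4% of all genes), and 10 rose and 6 fell in A2 (27.2% and 27.6%). For EPL against naive 3 rose and 7 fell in D3 (24.4% and 20.4% of all genes), and 4 rose and 7 fell in A2 (16.8% and 16.1%). Tgm2, a transglutaminase induced by retinoic acid, fell at that step by 1.68 ± 0.18 in D3 and by 1.62 ± 0.19 in A2, both called.

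In EpiSC libraries 17 retinoid genes were higher and 3 lower than in EPL libraries (median 2.70, all genes 0.07), and 19 were higher and 1 lower than in ground libraries (median 3.13, all genes 0.04). Of all genes, 39.1% were higher in each comparison, and 31.3% and 34.1% lower. Stra8, a retinoic acid target of germ cells, was at 88.2 ± 7.5 CPM in EpiSC and 1.54 ± 0.17 CPM in EPL libraries (log2 5.84 ± 0.18, edgeR adjusted p = 4.09e-17). Cyp26a1, which breaks down retinoic acid and is induced by it, was at 16.6 ± 3.1 CPM in EpiSC and 0.410 ± 0.13 CPM in EPL libraries (5.32 ± 0.30, edgeR adjusted p = 7.94e-13). Dhrs3, which turns retinal back to retinol, was higher by 6.35 ± 0.28 (edgeR adjusted p = 1.46e-14). Rarg itself was lower in the same comparison, as given above. The part of the fibroblast and primitive endoderm transcripts in these rises was not tested.

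Of 17 factors described in mESCs as partners, targets or regulators of Esrrb, 2 rose and 7 fell in naive against ground cells of D3, and 3 rose and 6 fell in A2 (medians -0.07 and -0.11, all genes 0.0072 and 0). The share called was near that of all genes, of which 26.3% rose and 27.3% fell in D3, and 25.1% and 25.9% in A2. In EPL against ground 0 rose and 13 fell in D3 (median -0.86, all genes 0), and 2 rose and 9 fell in A2 (median -0.19, all genes -0.0023), where 28.4% of all genes fell in D3 and 27.6% in A2. The T-box factor Tbx3 was among those that fell, with log2 changes of -3.94 ± 0.09 in D3 and -3.75 ± 0.09 in A2. The CP2-family factor Tfcp2l1 changed by -3.49 ± 0.14 in D3 and -3.02 ± 0.14 in A2, and Klf4 by -2.77 ± 0.11 and -2.48 ± 0.11 in the same lines. Prdm14, a germ cell and mESC factor, changed by -2.45 ± 0.11 in D3 and -1.96 ± 0.11 in A2, all of them called. Gbx2, a homeobox gene, rose in naive against ground by 1.71 ± 0.14 in D3 and 1.23 ± 0.14 in A2. In EPL cells D3 was lower than A2 for 12 of the 17 and higher for 1 (median -0.45, all genes 0.02), beside 13.8% and 15.6% of all genes, with Klf5 lower by -1.19 ± 0.10 and Tfcp2l1 by -1.16 ± 0.13 on the log2 scale. In EpiSC against EPL 3 were higher and 12 lower (median -0.94, all genes 0.07), beside 39.1% and 31.3% of all genes. Among them Klf2 fell by 2.35 ± 0.13, while Tbx3 was higher by 2.00 ± 0.08 and Klf4 by 1.26 ± 0.10. Pou5f1 and Sox2 were lower in the same comparison, as given above. The part of fibroblast and primitive endoderm transcripts in these EpiSC values was not tested.

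The genes described as repressed by Nr6a1 in mouse numbered 12, with 9 tested, Esrrb and Nr0b1 being 2 of them. In EPL against ground, the step where Nr6a1 rose most, 1 rose and 5 fell in D3 (median -0.29, all genes 0), and 2 rose and 3 fell in A2 (median -0.02, all genes -0.0023). Of all genes, 29.4% rose and 28.4% fell in D3, and 27.2% and 27.6% in A2. Nanog fell by 2.21 ± 0.09 in D3 and 1.52 ± 0.09 in A2, and Zfp42 by 0.95 ± 0.09 in D3 and 0.39 ± 0.09 in A2. Tdgf1, a coreceptor for Nodal, rose by 0.63 ± 0.15 in D3 and 0.57 ± 0.15 in A2. Pou5f1 was at 1082 ± 101 CPM in D3 EPL against 1100 ± 55 CPM in D3 ground libraries, and at 1074 ± 39 CPM in A2 EPL against 1142 ± 46 CPM in A2 ground libraries. In EpiSC against EPL 0 were higher and 7 lower (median -0.99, all genes 0.07), beside 39.1% and 31.3% of all genes. What fibroblast and primitive endoderm transcripts contribute to these falls was not tested.

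Of 23 coactivators and corepressors of nuclear receptors tested, 2 rose and 10 fell in naive against ground cells of D3 (median -0.18, all genes 0.0072), where 26.3% of all genes rose and 27.3% fell. In A2 3 rose and 5 fell (median -0.05, all genes 0), beside 25.1% and 25.9% of all genes. The coactivator Ncoa6 stood at 47.6 ± 7.5 CPM in D3 naive and 102.8 ± 5.8 CPM in D3 ground libraries (log2 -1.11 ± 0.13, edgeR adjusted p = 1.64e-07), and at 48.6 ± 6.2 CPM in A2 naive and 102 ± 8.7 CPM in A2 ground libraries (-1.07 ± 0.13, edgeR adjusted p = 3.1e-07). The corepressor Nrip1 fell by 1.27 ± 0.20 in D3 and 1.23 ± 0.19 in A2. In EPL against ground 2 rose and 10 fell in D3 (29.4% and 28.4% of all genes), and 4 rose and 7 fell in A2 (27.2% and 27.6%), with the arginine methyltransferase Carm1 higher by 0.63 ± 0.08 and 0.71 ± 0.08. Ncoa3, a coactivator that binds Esrrb in mESCs, rose in A2 by 0.63 ± 0.12 (edgeR adjusted p = 7.81e-05). In D3 its change was not called (edgeR adjusted p = 0.822), at 252 ± 22 CPM in D3 EPL against 258 ± 15 CPM in D3 ground libraries. In EpiSC against EPL 3 were higher and 13 lower (median -0.27, all genes 0.07), beside 39.1% and 31.3% of all genes. Nrip1 was higher by 2.78 ± 0.19 and Ncoa3 lower, at 156 ± 8.6 CPM in EpiSC and 343.5 ± 42 CPM in EPL libraries. Here too, the part of fibroblast and primitive endoderm transcripts was not tested.

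Genes of steroid synthesis and of steroid-making tissue, where Nr5a receptors activate and Nr0b1 represses transcription, were mostly silent, with 4 of 12 passing the filter. These were Star, Cyp11a1, Scarb1 and Inha, of which Scarb1 and Inha do not encode enzymes of steroid synthesis. Cyp11a1, which makes pregnenolone from cholesterol, had 127 counts in D3 naive and 7 in D3 ground libraries, and 109 in A2 naive and 22 in A2 ground libraries (log2 4.26 ± 0.43 in D3 and 2.28 ± 0.35 in A2, edgeR adjusted p = 2e-08 and 1.16e-05). The cholesterol receptor Scarb1 fell by 0.97 ± 0.10 in D3 and 1.07 ± 0.10 in A2 at that step. In EpiSC against EPL all 4 were higher, where 39.1% of all genes were, with Cyp11a1 at 13.4 ± 1.5 CPM in EpiSC and 1.04 ± 0.23 CPM in EPL libraries. Whether fibroblast and primitive endoderm transcripts have a part in this was not tested.

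The 5 genes were also compared by their course over the 21 libraries, as Pearson correlations of log2 CPM given as descriptions, since libraries of a group share a culture condition. Esrrb and Nr5a2 correlated at 0.91, Nr5a2 and Nr0b1 at 0.87 and Esrrb and Nr0b1 at 0.73. Nr6a1 and Rarg correlated at 0.76 with each other. With Esrrb they correlated at -0.51 and -0.23, with Nr5a2 at -0.26 and 0.05, and with Nr0b1 at 0.06 and 0.47. Among 11327 genes of at least 5 CPM, those closest to Esrrb were Lrrc34 (0.986), Dlgap3 (0.982) and Sp2 (0.977). Lrrc34 was at 58.2 ± 5.4, 34.3 ± 2.6 and 8.43 ± 0.96 CPM in D3 ground, naive and EPL libraries, and at 52.4 ± 4.7, 38.0 ± 1.1, 17.6 ± 3.7 and 5.82 ± 1.3 CPM in A2 ground, naive, EPL and EpiSC libraries.

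Closest to Nr5a2 were Ildr1 (0.973), Sgk1 (0.965) and Zfp42 (0.964), all of them lower in D3 EPL than in A2 EPL libraries by group mean. Zfp42 (Rex1), a zinc finger factor of the naive state, was at 504 ± 34 CPM in D3 EPL and 875 ± 26 CPM in A2 EPL libraries. Closest to Nr0b1 were Ssr2 (0.979), N4bp3 (0.975) and Fam136a (0.967), with their highest group means in naive libraries of each line. N4bp3 was at 71.5 ± 2.4, 90.9 ± 9.3 and 46.9 ± 0.58 CPM in D3 ground, naive and EPL libraries.

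Nr6a1 was followed most closely by Fam185a (0.975), Ehmt1 (0.968) and Bend3 (0.966). Ehmt1, a histone H3 lysine 9 methyltransferase, was at 87.6 ± 2.0, 112 ± 10 and 145 ± 7.0 CPM in D3 ground, naive and EPL libraries. Rarg was followed by Dnmt3l (0.984), Dppa4 (0.977) and Myc (0.976). Dnmt3l, the cofactor of de novo DNA methyltransferases, was at 79.9 ± 7.1, 489.9 ± 37 and 417 ± 16 CPM in D3 ground, naive and EPL libraries, and at 53.9 ± 7.0, 321 ± 5.3, 556 ± 30 and 77.0 ± 6.2 CPM in A2 ground, naive, EPL and EpiSC libraries. Like Rarg, it was thus highest in the naive stage in D3 and in the EPL stage in A2. These genes were picked for their likeness, which is therefore no result about them.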

How the data were processed

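The authors deposited 1 table of unnormalized read counts, with a row for each Ensembl gene. The tools named in the submitters' processing notes are featureCounts, HISAT2 and SAMtools, and the build is GRCm38. Their versions, the annotation and any strand option were not given in the sources used here. Per the labels' protocols, libraries were made with Illumina TruSeq RNA v2, which does not mark the strand. All 39396 identifiers matched GENCODE release 21 for mouse, from which coordinates and exon lengths were taken.

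Counts of all 21 libraries were fitted in 1 quasi-likelihood model (edgeR 4.0.16, R 4.3.3) with 1 mean per group and TMM scaling. The filter filterByExpr (minimum count 10, minimum total 15) kept 16575 genes, with at least 99.89% of each library's counts. TMM factors were 1.136 to 1.145 in EpiSC and 0.9326 to 1.007 in other libraries. Benjamini-Hochberg adjustment covered all 16575 genes of a contrast, and an adjusted p below 0.05 was a call. The 12 contrasts of groups and 3 interactions of line and stage used the same fit, which was tested on simulated data. The standard error of a log2 change is its size divided by the square root of F.

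The 5 genes and all gene lists were chosen with earlier results of these data known. The lists are other nuclear receptors, coregulators, the retinoid pathway, Esrrb partners and regulators, steroidogenic genes, Nr6a1-repressed genes, and fibroblast, primitive endoderm, trophoblast and primed epiblast markers. Some share genes, among them Rara, Rarb, the RXR genes, Hnf4a, Pou5f1, Nanog and Zfp42, so their counts are not independent. Named genes are the 5 receptors, the 3 genes most correlated with each, and up to 4 called genes of largest change per list and comparison. Outside that rule, Rara, Rxra, Nr2f6, Ncoa3 and Pou5f1, and in single comparisons Nr2f2, Hnf4a, Crabp1, Crabp2, Cyp26a1, Tdgf1, Zfp42 and Klf4, were named after their values were seen. Log2 CPM for correlations used a prior count of 2.

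Alternatives were RLE size factors, scaling to the total count, no filter, a stricter filter, DESeq2 1.42.0, limma-voom (limma 3.58.1), a replicate block, a fit of only the groups compared, each library left out in turn, and, added after the data were seen, scaling to Pou5f1 or Sox2. No library was left out of the reported values.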

Additional observations from a re-analysis of the deposited data

Results flagged for a closer look

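For 5 stage steps, the change of a receptor gene differed between the lines by the test of the difference itself (D3 minus A2 difference of log2 changes, edgeR adjusted p over all genes). For Nr5a2 it was -1.0 ± 0.17 in EPL against ground (adjusted p = 0.000297) and -0.88 ± 0.17 in EPL against naive (adjusted p = 0.00129), with the D3 change the larger fall in each. For Nr0b1 it was -1.04 ± 0.18 in EPL against naive (adjusted p = 0.000693) and 0.72 ± 0.18 in naive against ground (adjusted p = 0.031). For Rarg it was -0.60 ± 0.12 in EPL against naive (adjusted p = 0.00182), where Rarg was lower in EPL cells of D3 and higher in EPL cells of A2. The naive-against-ground difference of Nr0b1 is the one of these that leaving out a library removed (8 of 12 libraries).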

How the results depend on the processing

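For single receptor genes, 600 results were recomputed with other scalings, filters, tools or designs. Of these, 582 kept direction and call, 6 lost the call, 10 gained it and 2 turned. All 6 losses were Nr5a2 in naive against ground of D3 (edgeR adjusted p = 0.0835 with RLE, 0.109 with the total count, 0.0513 with the stricter filter and 0.0867 with only the groups compared; DESeq2 adjusted p = 0.091; 0.063 with the replicate block in edgeR). The 2 that turned were the uncalled D3 minus A2 difference of Nr6a1 in EPL against ground, -0.0022 without a filter and -0.008 with only the groups compared; the cause was not tested. Gains were made by Nr0b1 in D3 EPL against ground, Nr5a2 and Nr6a1 in D3 against A2 ground, Nr6a1 in EpiSC against naive and the Rarg difference between lines in naive against ground. The number of receptors called for D3 against A2 in ground was 1, and 3 without a filter, 2 with DESeq2 and 3 with only the groups compared. For the difference between lines in naive against ground it was 1, and 2 without a filter and 2 with DESeq2, and genes called in all numbered 508, against 846 without a filter. With scaling to the total count, the median of all genes was 0.26 to 0.30 in the EpiSC comparisons, beside 0.04 to 0.08 with TMM.

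With each library left out, 494 of 540 results kept direction and call, 31 lost it, 4 gained it and 11 turned. Of 52 called results, 43 kept their call without each library in turn. The receptors called ranged from 0 to 2 for the difference between lines in naive against ground and from 1 to 2 for D3 against A2 in naive. All values that turned were uncalled and near 0. Over all leave-outs, turned or not, the Nr6a1 difference between lines in EPL against ground ranged from -0.06 to 0.08. The range was -0.06 to 0.12 for Nr0b1 in A2 EPL against ground and -0.0051 to 0.15 for Rarg in D3 against A2 ground. For the Nr5a2 difference between lines in naive against ground it was -0.21 to 0.01.

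Of the 5 receptors called in EpiSC against EPL, 2 were called when scaled to Pou5f1 and 3 when scaled to Sox2. Esrrb turned to 0.20 and 0.05 and Nr6a1 to 0.10 with Pou5f1; against naive, Nr6a1 turned to 1.14 and 0.89 and Rarg to 0.25 and 0.0083, as these scalings shift every gene upward.

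Libraries share replicate numbers 1 to 3, and the series calls its samples paired without saying how. The numbers were not taken as pairs: 8 of 63 same-numbered pairs had deviations that correlated above 0.1, and 5 of 21 libraries correlated best with their own number. With the replicate block, Nr5a2 in naive against ground of D3 was -0.28 and not called, and 74 of 75 results kept direction and call.

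Of 120 list medians, 11 moved by 0.1 or more when genes with 3 counts or fewer in a group were set to 3 counts. Counting error was small for the 5 receptors, whose lowest counts in a library were 440 for Nr0b1, 554 for Nr6a1, 584 for Nr5a2, 1424 for Rarg and 4599 for Esrrb.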
